A study of Homo sapiens with 64 samples.

Results

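The ribosome biogenesis genes described here are 40 genes for nucleolar ribosomal RNA (rRNA) processing and RNA polymerase I, chosen by symbol and each matched to 1 Ensembl identifier among the 54127 genes counted. RNA sequencing was available for 64 samples of 6 colorectal cancer (CRC) cell lines, HT55, SW948, RKO, SW48, DLD1 and HCT15, all grown as nonadherent spheroids with bFGF and EGF. From each line, 4 replicates of label-retaining cells (LRCs) and 4 of non-LRCs had been sorted on day 6 after staining with CFSE, a dye that thins out as cells divide, and LRCs are the bright cells that divided least and non-LRCs are the bulk of the dyed culture. The other 16 samples were unsorted DLD1 controls, with 4 replicates each of CFSE-stained and of DMSO-treated, unstained cells on day 1 and on day 5 of the labels (CFSE d1, DMSO d1, CFSE d5 and DMSO d5). All sorted cells therefore carried CFSE, and each line is 1 established line and no replicate of a patient. The study's methods report 4 biological replicates per experiment, but nothing in the labels says whether these were separate cultures. The p-values therefore measure the spread between these samples. All 40 genes passed the filter on low counts in each comparison, and the lowest count of a member in any sample was 45.

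Ribosome production starts in the nucleolus, where RNA polymerase I transcribes the ribosomal DNA into 1 long precursor. Box C/D and box H/ACA small nucleolar ribonucleoproteins (snoRNPs) modify this precursor, the small subunit processome folds and cuts the part that becomes the small subunit, and a separate series of assembly factors builds the large subunit. The pathway is among the largest expenses of a dividing cell, and the transcription factor MYC is known to drive many of its genes through the E-box CACGTG.

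Promoters of the members are shown first, because CACGTG lies close to the start of many of them. RefSeq promoters, running from 250 bases before to 50 after a gene's start (table of build GRCh38.p14), were found for 34 of the 40 genes. The letters CACGTG, which read the same on both strands, were in a promoter of 15 of these 34 genes (44.1%), against 2396 of all 27305 genes in the table (8.77%) and 31 of 90 other genes of the pathway (34.4%). Of the 17 matches in members, 15 (88.2%) began within 50 bases of the start, compared with 1042 of 2821 (36.9%) among all genes. A match is a description of the letters, not of binding. For 5 members with a match near the start, the stretch from 70 bases before the start to 29 after its first base is printed 5′ to 3′ on the gene's strand, with the E-box in capitals and with its GRCh37 position, found by exact match.

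MRTO4, chr1:19578229-19578328, strand plus: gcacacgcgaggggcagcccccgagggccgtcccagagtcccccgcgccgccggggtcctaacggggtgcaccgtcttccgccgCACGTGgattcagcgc

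WDR43, chr2:29117463-29117562, strand plus: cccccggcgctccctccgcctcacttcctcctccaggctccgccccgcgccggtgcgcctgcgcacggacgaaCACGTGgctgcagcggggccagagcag

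GNL3, chr3:52719978-52720077, strand plus: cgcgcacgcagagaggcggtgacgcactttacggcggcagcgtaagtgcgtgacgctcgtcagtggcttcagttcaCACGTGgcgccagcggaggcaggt

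FBL, chr19:40336990-40337089, strand minus: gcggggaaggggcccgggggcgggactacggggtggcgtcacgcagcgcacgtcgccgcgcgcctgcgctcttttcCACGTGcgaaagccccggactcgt

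DDX21, chr10:70716333-70716432, strand plus: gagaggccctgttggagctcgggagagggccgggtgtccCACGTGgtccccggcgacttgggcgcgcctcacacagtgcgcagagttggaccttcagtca

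In MRTO4 (large subunit assembly), WDR43 (small subunit processome), GNL3 (the nucleolar GTPase nucleostemin) and FBL (fibrillarin, the methyltransferase of box C/D snoRNPs) the E-box began 14, 3, 6 and 6 bases after the first transcribed base. In DDX21, a nucleolar RNA helicase, it lay 31 bases before it. DDX21 and GNL3 each have another RefSeq promoter with its own start, and the stretch printed is from the promoter with the match. The other promoters, at chr10:70715676-70715975 for DDX21 and chr3:52719686-52719985 for GNL3, had no match.

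Between 12237225 and 20913455 reads were counted on genes per sample, with a median of 15063858. Levels are given as CPM (gene counts relative to library size, scaled by TMM factors). The epithelial markers EPCAM, CDH1, KRT8 and KRT18 were present in HT55, SW948, SW48, DLD1 and HCT15, with line medians from 368.4 to 5970.0 CPM. RKO was lower, at 17.1 CPM for EPCAM and 1.06 CPM for CDH1, but still had 93.97 CPM for KRT8 and 137.2 CPM for KRT18. KRT19 was also present in these lines, at 355.0 to 944.5 CPM, and at 0.950 CPM in RKO. The intestinal markers CDH17, VIL1 and CDX2 were low in SW48 as well, at 27.5, 3.29 and 38.4 CPM. In RKO they were at 1.14, 0.299 and 18.9 CPM, and in HT55, SW948, DLD1 and HCT15 between 89.9 and 1156 CPM. Of the markers of other cell types, CD3E had no count in any of the 64 samples. VWF, COL1A1, COL1A2 and DCN reached at most 3.59, 12.9, 0.193 and 0.223 CPM in any sample. PTPRC had a median of 15.3 CPM in SW48 and of 0 in every other line. CD68 had a median of 1196 CPM in RKO and of 4.39 to 63.3 CPM in the other lines. One library went against its label. The library labelled DMSO d1 replicate 4 correlated with the DMSO d5 libraries at Pearson's r of 0.980 to 0.995 over 14518 genes but with its own group at 0.963 to 0.972. The main control counts and the fold changes of members described in detail for dye or day are therefore given with and without it. Other control values include this library unless stated. CFSE d1 replicates 1 and 2 also stood apart from replicates 3 and 4, with r down to 0.973 between the pairs, 0.994 for replicates 1 and 2 and 0.996 for replicates 3 and 4.

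The 40 genes together took 0.306% to 0.914% of the counts on genes. In RKO, the share was 0.711, 0.729, 0.685 and 0.703% in non-LRCs and 0.578, 0.607, 0.592 and 0.594% in LRCs. In DLD1 it was 0.584, 0.553, 0.601 and 0.605% in non-LRCs and 0.512, 0.491, 0.518 and 0.511% in LRCs. LRCs were below non-LRCs without overlap in both lines, and also in SW48, where non-LRCs ranged from 0.592% to 0.641% and LRCs from 0.550% to 0.574%. In SW948, LRCs spread from 0.415% to 0.520% against 0.5% to 0.522% in non-LRCs, and the groups overlapped. HT55 had the lowest shares, 0.358, 0.361, 0.358 and 0.360% in non-LRCs and 0.307, 0.361, 0.306 and 0.312% in LRCs, where replicate 2 stood alone at the non-LRC level. HCT15 was the exception, with LRCs at 0.451% to 0.510% and non-LRCs at 0.453% to 0.497%. In these bulk samples, fewer cells that use a gene and less RNA per cell cannot be told apart.

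**Figure D1:**
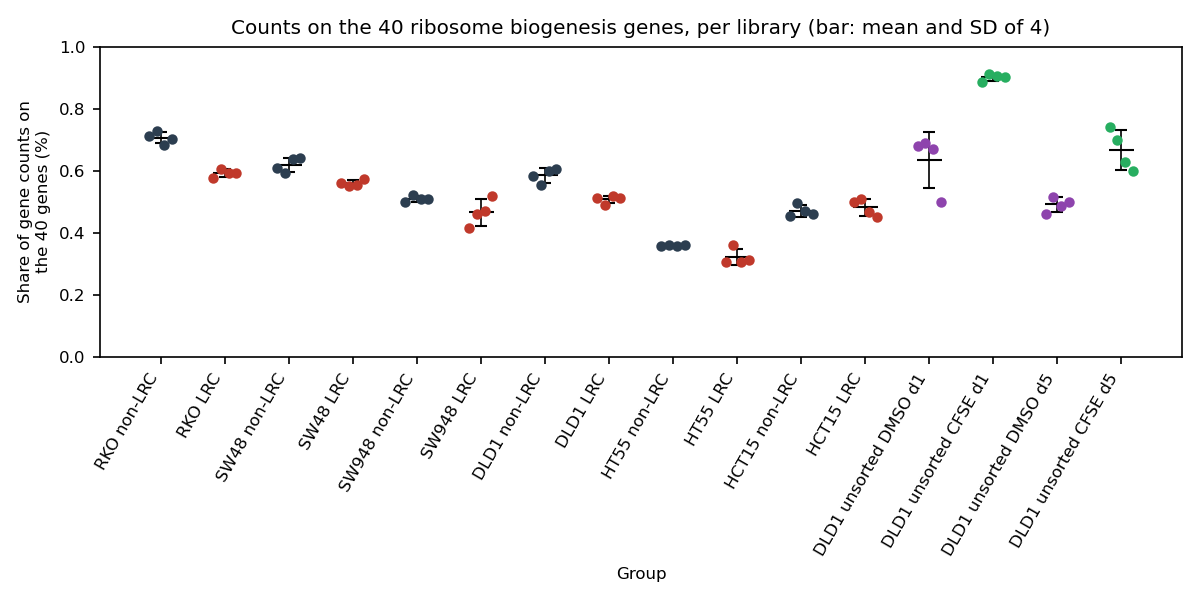
Share of gene counts (%) on the 40 ribosome biogenesis genes in each of the 64 libraries (points), by group, with the mean and SD of 4 replicates. The LRCs of RKO, SW48 and DLD1 lie below their non-LRCs, the 4 CFSE d1 libraries lie between 0.887% and 0.914%, and the library labelled DMSO d1 replicate 4 lies at 0.499%.

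The comparison of LRCs with non-LRCs asks how dye-retaining cells differ from the cycling bulk. Across the 6 lines, 27 of the 40 genes were lower in LRCs and none was higher, where 10.7% of all 16603 genes tested were called lower and 12.2% higher. The members' median log2 fold change was −0.13, beside 0.01 over all genes, and 38 of the 40 estimates were negative, so the differences were in one direction but small. The genes called included all 11 large subunit assembly factors, all 4 box C/D and U3 proteins and all 3 box H/ACA proteins. Of the nucleolar scaffold, chaperone and helicase proteins 3 of 5 were called, of the RNA polymerase I genes 3 of 7, and of the small subunit processome and maturation genes 3 of 10.

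RRS1, an assembly factor of the large subunit, had the smallest p-value. Over 24 samples each it ranged from 18.4 to 63.95 with a median of 24.9 CPM in non-LRCs and from 13.7 to 50.8 with a median of 20.8 CPM in LRCs. In RKO its levels were 61.6, 58.6, 61.5 and 63.95 CPM in non-LRCs and 49.3, 48.97, 50.03 and 50.8 CPM in LRCs. HCT15, the line without a lower share, had 20.1, 18.9, 19.6 and 19.8 CPM in non-LRCs and 16.3, 16.5, 15.1 and 15.6 CPM in LRCs. RRS1 was lower in LRCs in 6 of 6 lines, and LRCs lay below non-LRCs without overlap in 5 of them, the exception being HT55. Its change across the lines was −0.30 ± 0.04 (log2, SE; adjusted p = 2.89e-07).

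DKC1, GAR1 and NHP2 are core proteins of the box H/ACA snoRNPs, with DKC1 (dyskerin) as the pseudouridine synthase. DKC1 ranged from 91.5 to 174 with a median of 144 CPM in non-LRCs and from 76.7 to 150.1 with a median of 118 CPM in LRCs. In DLD1 its levels were 132, 122, 143 and 152 CPM in non-LRCs and 105, 98.3, 115 and 111 CPM in LRCs, without overlap. Its change across the 6 lines was −0.21 ± 0.04 (log2, SE; adjusted p = 1.57e-05). GAR1 had the largest change of any member in a single line. In RKO it was at 28.4, 32.6, 31 and 31.5 CPM in non-LRCs and 17.2, 21.6, 19.1 and 18.4 CPM in LRCs, a change of −0.72 ± 0.09 (log2, SE; adjusted p = 2.35e-05). Across the 6 lines GAR1, which ranged from 12.6 to 32.6 with a median of 23.2 CPM in non-LRCs and 11.4 to 25.6 with a median of 17.9 CPM in LRCs, changed by −0.28 ± 0.06 (log2, SE; adjusted p = 0.000253). NHP2 ranged from 36.6 to 122 with a median of 64.8 CPM in non-LRCs and from 31.5 to 104 with a median of 59.3 CPM in LRCs, and its change was −0.23 ± 0.04 (log2, SE; adjusted p = 8.27e-05). All 3 were lower in LRCs in 6 of 6 lines.

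NOLC1, a phosphoprotein that binds snoRNPs, ranged from 178 to 338 with a median of 215 CPM in non-LRCs and from 146 to 273 with a median of 199 CPM in LRCs. In DLD1 it fell from 321, 301, 323 and 338 CPM in non-LRCs to 259, 238, 266 and 262 CPM in LRCs, with no overlap. Its change across the lines was −0.20 ± 0.03 (log2, SE; adjusted p = 2.24e-05). Of its neighbours in this class, NCL (nucleolin) changed by −0.17 and NPM1 (nucleophosmin) by −0.14, both called. NPM1 has 49 named pseudogenes, and reads that fit several places were not assigned to it, so its level is uncertain.

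MRTO4 and WDR12 take part in large subunit assembly, WDR12 in a complex with PES1 and BOP1. MRTO4 ranged from 25.9 to 105 with a median of 56.2 CPM in non-LRCs and from 23.9 to 70.8 with a median of 50.9 CPM in LRCs, and in RKO it was 91.6, 91, 105 and 103 CPM against 65, 70.8, 69.8 and 65.2 CPM in LRCs. Its change across the lines was −0.24 ± 0.04 (log2, SE; adjusted p = 3.1e-05). WDR12 ranged from 36.9 to 80.4 with a median of 58.3 CPM in non-LRCs and from 34.4 to 70.5 with a median of 52.4 CPM in LRCs, with a change of −0.18 ± 0.03 (log2, SE; adjusted p = 0.000103). Both were lower in 6 of 6 lines, and LRCs and non-LRCs did not overlap in RKO and DLD1, nor in SW48 for MRTO4. The partners of WDR12 were called as well, PES1 at −0.13 and BOP1 at −0.31, although BOP1 had between 49 and 208 counts per sample and its counting error is larger. IMP4, a protein of the U3 snoRNP in the small subunit processome, ranged from 50.3 to 140.2 with a median of 79.8 CPM in non-LRCs and from 48.2 to 124 with a median of 73.8 CPM in LRCs. It changed by −0.18 ± 0.03 (log2, SE; adjusted p = 6.64e-05) and was lower in 6 of 6 lines.

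The 3 members with the largest p-values were RRP12, NOB1 and DDX21. RRP12, which accompanies precursor subunits out of the nucleus, ranged from 40.1 to 121 with a median of 62.9 CPM in non-LRCs and from 36.3 to 130.0 with a median of 61.9 CPM in LRCs, with a difference of 0.0022 ± 0.04 (log2, SE). NOB1, the nuclease of the last cut of small subunit rRNA, ranged from 57.7 to 251 with a median of 121 CPM in non-LRCs and 55.1 to 229 with a median of 123 CPM in LRCs, with a difference of −0.03 ± 0.06. DDX21 ranged from 175 to 699.6 with a median of 269.7 CPM in non-LRCs and 183 to 709.5 with a median of 232 CPM in LRCs, with a difference of −0.05 ± 0.06. For each of these genes the difference was smaller than its standard error. RRN3, the initiation factor that brings RNA polymerase I to the promoter, had the largest positive estimate, 0.11 ± 0.04 (log2, SE; adjusted p = 0.0604), and did not pass the test.

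**Figure D2:**
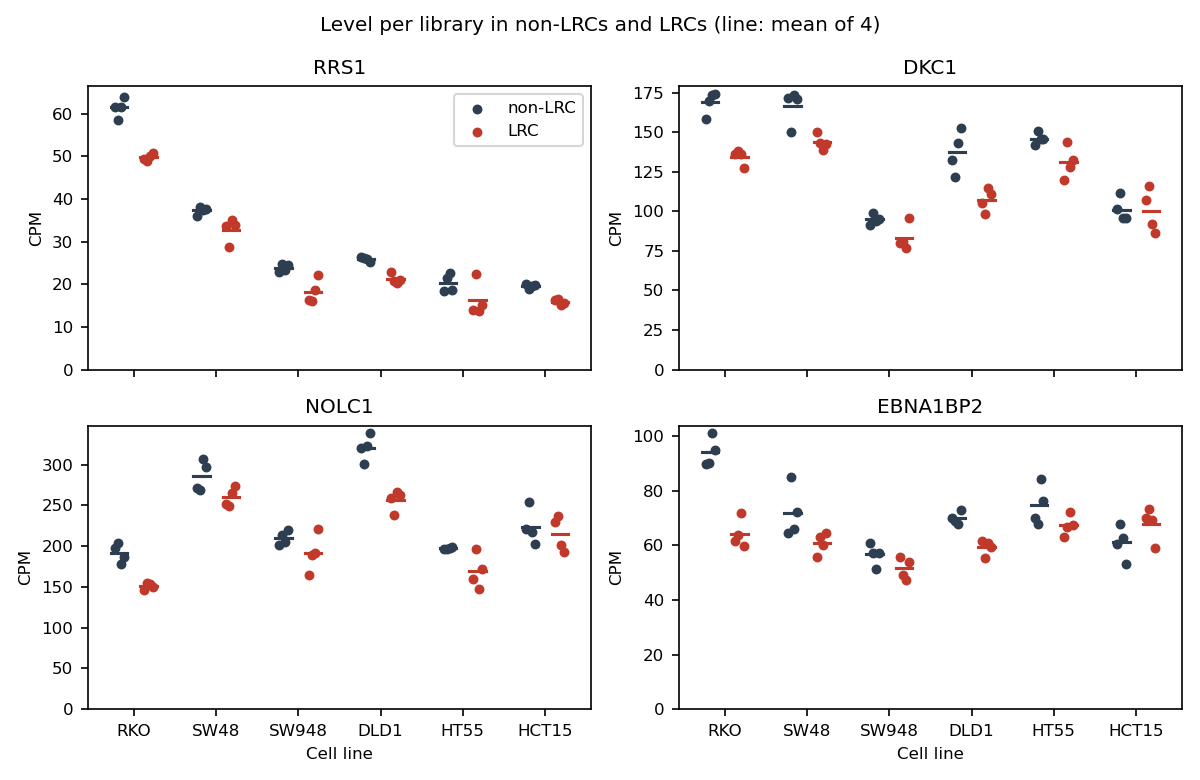
CPM per library of RRS1, DKC1, NOLC1 and EBNA1BP2 in non-LRCs and LRCs of the 6 lines, with the mean of 4 as a line. The RKO and DLD1 LRCs lie below their non-LRCs for all 4 genes, and in HCT15 that holds for RRS1 alone of the 4.

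Among 102 other genes of the pathway with counts, 27 were lower in LRCs across the lines and 1, SBDS, was higher. The smallest p-values were those of NOC2L at −0.21, WDR18 at −0.30 and RRP7A at −0.19. MYC itself changed by −0.24 ± 0.07 (log2, SE; adjusted p = 0.00800). Of 10 proliferation genes, 7 were lower (PCNA and MCM2 to MCM7), 0 were higher, and the median change was −0.27. The part of this in the result for the 40 genes was not tested.

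Taking each line alone, 23 members were lower in RKO (background 21% lower) and 20 in DLD1 (background 7.89%), with none higher in either. Of the 29 genes called in RKO or DLD1, 14 were called in both, which is 14 of the 23 in RKO and 14 of the 20 in DLD1. They include DKC1, GAR1, NOLC1, NCL, FBL, NOP58, RRS1, MRTO4 and EBNA1BP2. The overlap of the 2 lines was not counted over all genes, so it is not shown to be particular to the members. The median log2 fold changes of the members were −0.24 in RKO, −0.21 in DLD1, −0.16 in HT55, −0.12 in SW948, −0.07 in SW48 and 0.02 in HCT15. No member passed the edgeR test in HT55, SW948, SW48 or HCT15, where the background of lower calls was 0.0%, 0.0%, 0.0758% and 0.25%, and 6, 10, 9 and 4 of the 40 members had an unadjusted p below 0.05 in either direction, where 7.51%, 17.2%, 13.1% and 17.2% of all genes did. DESeq2 called 0, 0, 2 and 0 members there, given without the share of all genes. The LRC libraries of RKO had more mitochondrial counts, 7.01% to 10.5% against 4.47% to 6.57%, and so did those of SW48, 13.8% to 14.2% against 9.66% to 11.3%, whereas DLD1 had 5.37% to 7.30% in LRCs and 5.42% to 7.16% in non-LRCs. Of the 10 proliferation genes, 9 were lower in RKO and 9 in DLD1, and none was called in the other lines. The part of these differences in the members' counts was not tested.

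The DLD1 count was 2 without replicate 1, 7 without replicate 3, 7 without replicate 4 and 17 without replicate 2, where 2.58%, 2.74%, 3.12% and 6.15% of all genes were lower. The members' median fold change in these fits was −0.21, −0.20, −0.17 and −0.20, with 38 of 40 negative in each, so the calls moved but not the direction. In RKO the count stayed between 17 and 21 when any replicate number was left out, at members' medians from −0.26 to −0.23. The shares of all genes are not given for these RKO fits. Same-numbered LRCs and non-LRCs deviated together in HT55, SW48, DLD1 and HCT15. With the replicate number as a block, 29 members were lower in DLD1 (background 16.6% in that fit), 2 were lower in SW48 (TCOF1 and FBL, background 4.33%) and 0 were called in HT55. In HCT15 the blocked fit had 4 members higher (RRN3, DDX21, TCOF1 and WDR43, background 11.3%) and 3 lower (RRS1, UBTF and MYBBP1A, background 10%), shares no larger than those of all genes. For RRN3 in HCT15, non-LRCs were at 26.3, 30.98, 24.9 and 23.4 CPM and LRCs at 36.7, 40.7, 34.4 and 29.1 CPM, a blocked change of 0.42 ± 0.07 (adjusted p = 0.000609).

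**Figure D3:**
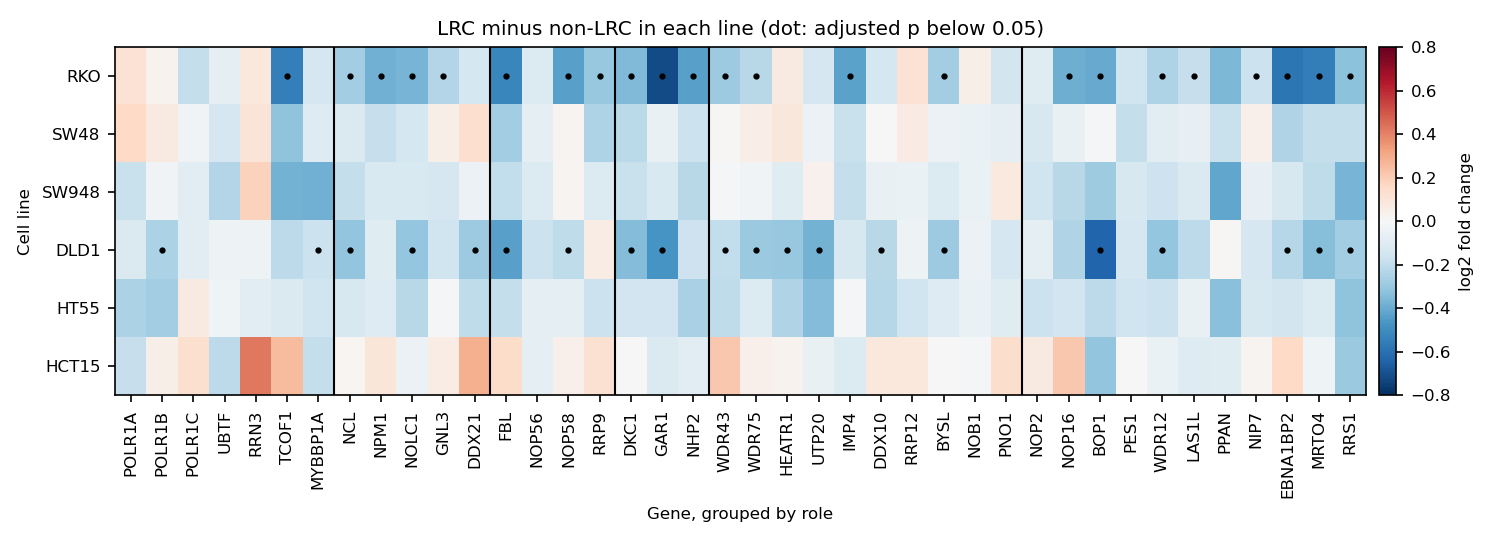
Log2 fold change of LRCs against non-LRCs (color) for the 40 genes in each line, grouped by role, with a dot where the adjusted p was below 0.05. RKO has 23 dots and DLD1 20, all at negative values, and the other 4 lines have none.

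The difference of the LRC effect between lines was tested directly with a line by population term. It was significant for 9 of the 40 genes (background 14.3%), namely EBNA1BP2, WDR43, NOP58, GAR1, NOP16, FBL, POLR1B, MRTO4 and RRN3. With the replicate block it was significant for 19 members and for 33.6% of all genes. Without replicate 1, 3 or 4 it was significant for 1, 2 and 2 members and for 3.20%, 4.88% and 5.40% of all genes, so the counts of members moved together with those of all genes. EBNA1BP2, a large subunit assembly factor, had the smallest p (adjusted p = 0.0014). It was at 90.1, 90.3, 101 and 94.99 CPM in RKO non-LRCs and 61.8, 63.7, 72.1 and 59.7 CPM in RKO LRCs. In HCT15 it was at 60.5, 67.8, 62.8 and 53.3 CPM in non-LRCs and 70.03, 73.2, 69.5 and 59.1 CPM in LRCs, higher within each replicate number. Its log2 fold changes were −0.58 in RKO, −0.24 in SW48, −0.23 in DLD1, −0.15 in HT55, −0.13 in SW948 and 0.16 in HCT15.

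WDR43, of the early small subunit processome, followed the same order at both ends (adjusted p = 0.00178). Its levels were 161, 164, 146 and 155 CPM in RKO non-LRCs and 128, 132, 127 and 134 CPM in RKO LRCs, but 75.6, 83.7, 76.8 and 77.9 CPM in HCT15 non-LRCs and 92.8, 104, 83.8 and 82.1 CPM in HCT15 LRCs. In SW48 and SW948 the estimates were near 0, at 0.01 and −0.01. NOP58, a core protein of box C/D snoRNPs, was at 113, 121, 124 and 108 CPM in RKO non-LRCs and 80.2, 93.96, 86.3 and 89 CPM in RKO LRCs (adjusted p of the term 0.00691). The other lines had NOP58 estimates from −0.20 in DLD1 to 0.04 in HCT15.

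Levels in non-LRCs were also compared between the lines. All 40 genes differed between the 6 lines, as did 98.3% of all genes tested, so the count alone says little about the members. RKO was above the mean of the other 5 lines for 35 members and below it for 1 (background 37.4% and 38.8%), and SW48 was above for 29 and below for 2 (36.9% and 31.2%). HCT15 was above for 0 and below for 32 (38.6% and 27.6%), and HT55 above for 3 and below for 27 (41.3% and 32.9%). SW948 was above for 12 and below for 18 (40.4% and 31.8%), and DLD1 above for 12 and below for 16 (36.6% and 25.5%). Without TMM factors, which moved the median of all genes by −0.28 in HT55, 0.22 in HCT15 and 0.09 in DLD1, the splits were 1 above and 35 below in HT55, 4 and 23 in HCT15, and 17 and 10 in DLD1. In LRCs, RKO was above for 30 and below for 2 and HCT15 above for 2 and below for 22. RKO was the highest line for 23 members, SW48 for 9, SW948 for 6 and DLD1 for 2, and the lowest line was HCT15 for 20, HT55 for 10, SW948 for 7, DLD1 for 2 and RKO for 1. The order of lines was not counted over all genes, so these counts are not shown to be particular to the members. Backgrounds are likewise not given for the splits without TMM factors and in LRCs.

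RRN3 varied most, with line means in non-LRCs spanning 4.25-fold. It was at 119.8, 93.9, 121 and 114 CPM in SW48, 107, 102, 99.8 and 91.9 CPM in HT55 and 88.3, 94.1, 82.7 and 85.2 CPM in RKO. SW948 had 42.6, 45.2, 49.5 and 40.8 CPM, DLD1 30.9, 30.8, 32.7 and 32.1 CPM and HCT15 26.3, 30.98, 24.9 and 23.4 CPM. The 3 high lines did not overlap the 3 low ones, while SW48, HT55 and RKO overlapped in part among themselves, as did DLD1 and HCT15. HT55 was thus high for this factor (0.99 against the other lines) although low for 27 members. RRN3 has 3 named pseudogenes.

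NOP56, a box C/D core protein, spanned 3.96-fold. RKO non-LRCs were at 321, 282, 319 and 288 CPM and SW48 at 256, 236, 221 and 236 CPM. DLD1 had 179, 177, 221 and 228 CPM, HCT15 173, 183, 187 and 176 CPM and SW948 134, 143, 130.4 and 136 CPM, and DLD1 overlapped both SW48 and HCT15. HT55 was lowest at 78.9, 77.2, 73.5 and 76.4 CPM, below all other lines. NOP16, of large subunit assembly, spanned 3.81-fold, from 14.5, 16.4, 17.04 and 15.6 CPM in HCT15 to 57.6, 57.1, 67.4 and 60.1 CPM in RKO. SW948 non-LRCs were at 55.6, 59.6, 53.9 and 56.5 CPM, SW48 at 40.2, 43.3, 36.8 and 41.1 CPM, HT55 at 23.7, 24.8, 24.3 and 30.1 CPM and DLD1 at 26.4, 25.9, 26.9 and 23.3 CPM. RKO and SW948 overlapped, as did HT55 and DLD1. At the other end, the line means of NOP58 lay within 1.16-fold.

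**Figure D4:**
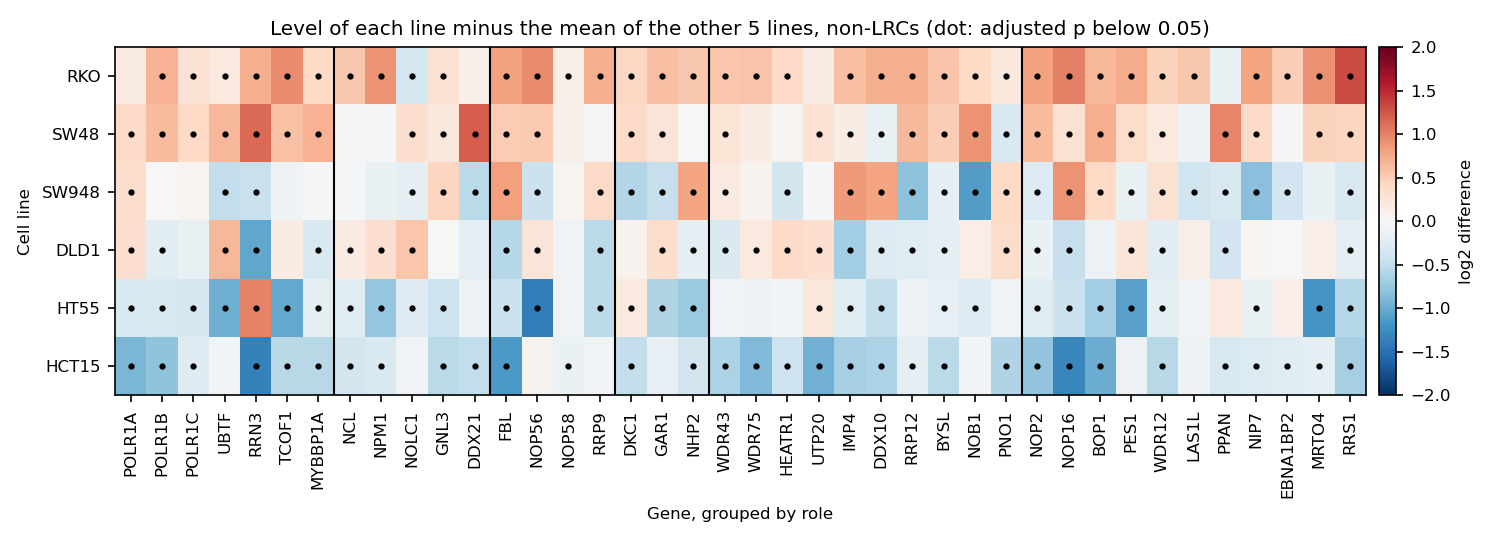
Log2 difference of each line from the mean of the other 5 lines in non-LRCs (color) for the 40 genes, with a dot where the adjusted p was below 0.05. RKO is above the other lines for 35 genes and HCT15 below for 32, while RRN3 in HT55 is opposite in sign to most genes of that line.

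Per length of the canonical transcript, which was available for 39 members, NPM1 was the most abundant at a mean of 719.3 RPKM (reads relative to transcript length and library size) over the non-LRC lines, followed by NCL at 283.1, FBL at 175.0 and NOP56 at 98.7 RPKM. The RNA polymerase I subunits POLR1A and POLR1B were at 9.69 and 11.4 RPKM, and PPAN, a large subunit assembly factor, was lowest at 2.85 RPKM. PPAN shares exons with the readthrough gene PPAN-P2RY11, and reads in shared exons would not be assigned to it.

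In the unsorted DLD1 controls, the comparison of CFSE with DMSO asks how stained cultures differed from unstained ones. The labels end in numbers from 49 to 56 for DMSO and from 57 to 64 for CFSE, and what these numbers stand for is not given. The dye and anything else that follows this numbering cannot be told apart. The members' share of the gene counts was 0.680, 0.689, 0.670 and 0.499% in DMSO d1 and 0.887, 0.914, 0.905 and 0.903% in CFSE d1. On day 5 it was 0.461, 0.517, 0.488 and 0.501% in DMSO and 0.743, 0.700, 0.628 and 0.599% in CFSE, so CFSE libraries were above DMSO libraries on both days without overlap. Over both days 37 of the 40 genes were higher with CFSE and 0 lower (background 13.2% higher and 15.3% lower), with a median log2 fold change of 0.55, beside −0.02 over all genes. UBTF, the factor that keeps ribosomal DNA open (−0.04), NHP2 (0.20) and NOB1 (0.16) did not pass. By role, the genes called were 6 of 7 for RNA polymerase I, 5 of 5 scaffold and helicase proteins, 4 of 4 for box C/D, 2 of 3 for box H/ACA, 9 of 10 for the small subunit and 11 of 11 for the large subunit. Without the library labelled DMSO d1 replicate 4, the count was 35 (background 10.9%) and the median 0.49, and NPM1 (adjusted p = 0.0761) and FBL (adjusted p = 0.0588) were no longer called, which leaves 4 of 5 scaffold and helicase proteins and 3 of 4 for box C/D.

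Within day 1 the count was 30 (background 9.73%), or 19 without that library (background 7.39%). It was 16 without replicate 1 and 6 without replicate 2, at median fold changes of 0.65 and 0.62 beside 0.59 with all replicates. The shares of all genes are not given for these fits, so their counts alone say little about the members. Within day 5 the count was 17 (background 3.11%), 28 without that library (background 7.09%) and 28 with the replicate block (background 5.58%). With DESeq2 the count was 26 and without replicate 4 it was 25, both given without the share of all genes. It was 0 when replicate 1, 2 or 3 was left out of all 4 groups, where no gene of the whole table was called higher either, and the members' median was then 0.39, 0.48 and 0.57 beside 0.51 with all replicates.

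WDR43 and NOLC1 had the smallest p-values for the dye. WDR43 was at 101, 104, 109 and 81.4 CPM in DMSO d1, 163, 176, 152 and 156 in CFSE d1, 91.3, 92.3, 87.4 and 82.9 in DMSO d5 and 149.8, 146, 109.5 and 108 in CFSE d5. CFSE libraries lay above all DMSO libraries on the same day without overlap, and CFSE d5 replicates 1 and 2 were well above replicates 3 and 4. Its change was 0.63 ± 0.09 (log2, SE; adjusted p = 0.000467), and 0.58 ± 0.08 without the library labelled DMSO d1 replicate 4. NOLC1 was at 299.8, 299, 309 and 215 CPM in DMSO d1, 366, 408, 429 and 426 in CFSE d1, 178, 222, 216 and 212 in DMSO d5 and 406, 379, 314 and 289.6 in CFSE d5. The DMSO d1 values hold that library at the day 5 level. For NOLC1 the change was 0.65 ± 0.09 (log2, SE; adjusted p = 0.000526), and 0.58 ± 0.08 without it. The largest change was that of NOP16 at 0.89, followed by DDX21 at 0.76 and BYSL, of the small subunit, at 0.75. Without that library they were 0.80, 0.70 and 0.69.

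Of the 102 other pathway genes, 75 were higher with CFSE and 1, NOP53, was lower, with the smallest p-values for RRP1B at 0.52, DHX33 at 0.59 and GTPBP4 at 0.65. MYC was higher by 0.91 ± 0.13 (log2, SE; adjusted p = 0.000566). Without the library labelled DMSO d1 replicate 4, 72 were higher and 1 lower, and MYC was higher by 0.83 ± 0.13. By day and without that library, MYC changed by 1.18 ± 0.19 on day 1 (edgeR adjusted p = 0.00144). On day 5 it changed by 0.48 ± 0.17 (adjusted p = 0.0682) and did not pass. CFSE d5 replicates 3 and 4, at 123.8 and 116.6 CPM, lay within the DMSO d5 range of 100.7 to 129.7 CPM for MYC. The proliferation genes moved otherwise by day, with 0 higher and 1 lower on day 1 and 9 of 10 higher on day 5 with or without that library, and their part in the result for the 40 genes was not tested. With all 16 libraries, the 15 members with CACGTG in a promoter had a median dye change of 0.63, from 0.40 to 0.76, and the 19 with a promoter but no match a median of 0.46, from −0.04 to 0.89.

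The day comparison asks how the unsorted cells changed in culture. Averaged over both dyes, 23 of the 40 genes were lower on day 5 and 0 higher (background 23.1% lower and 26.4% higher), with a median log2 fold change of −0.33, beside 0.04 over all genes. Without TMM factors, which moved the median of all genes by −0.12, 31 were lower, given without the share of all genes. Over both dyes 29 were lower without the library labelled DMSO d1 replicate 4 (background 28.7%), 27 with the replicate block (background 24.4%) and 13 without replicate 3, where 20% of all genes were lower and the members' median was −0.33 as before. Reads that fell on no gene also moved with day, at 8.96% to 14.8% in the day 1 libraries and 5.19% to 8.35% in the day 5 libraries, without overlap, while mitochondrial counts were 2.61% to 5.45% and 2.84% to 6.53%. The part of this in the result was not tested.

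Within CFSE 18 were lower (background 19.1%), or 22 without that DMSO library (background 22.2%), which enters the common estimate of the spread. Same-numbered CFSE libraries of the 2 days deviated together, and the count with the replicate block was 23 (background 20.4%). It was 9 without replicate 2 and 7 without replicate 3, at medians of −0.40 and −0.29 beside −0.34, with no share of all genes given beside these counts. Within DMSO 11 were lower (background 13.1%) and 1, NOB1, was higher, and without the library labelled DMSO d1 replicate 4 the lower count was 24 (background 22.9%). No member and no other gene was called within DMSO when replicate 1, 2 or 3 was left out, at members' medians of −0.24, −0.30 and −0.32 beside −0.25. Without replicate 4, 18 members were lower, given without the share of all genes. The dye by day term was significant for 0 of the 40 genes in edgeR (background 0.999%), with 1 at an unadjusted p below 0.05, and for 1 with DESeq2. The day and dye comparisons use the same 16 samples.

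NOP2, an rRNA methyltransferase of the large subunit, fell with the smallest p. It was at 116, 121, 96.2 and 62.6 CPM in DMSO d1, 186, 191, 147 and 156 in CFSE d1, 38.8, 63.4, 55.4 and 71.4 in DMSO d5 and 101, 94.4, 79.8 and 72.3 in CFSE d5. Day 5 libraries were below day 1 libraries of the same dye without overlap, except for the library labelled DMSO d1 replicate 4, which lay among the DMSO d5 values. The change of NOP2 was −0.90 ± 0.14 (log2, SE; adjusted p = 0.000142), and −1.03 ± 0.12 without that library. GNL3 was at 150.1, 162, 154 and 102 CPM in DMSO d1, 206, 210.0, 212 and 204 in CFSE d1, 99.3, 104, 91.2 and 106 in DMSO d5 and 166, 153, 135 and 121 in CFSE d5, with the same library again at the level of DMSO d5. Its change was −0.54 ± 0.09 (log2, SE; adjusted p = 0.000255), and −0.65 ± 0.07 without it.

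TCOF1, the treacle protein that links RNA polymerase I to processing, had the largest fall. Its levels were 167, 179, 168 and 83.7 CPM in DMSO d1, 217, 232, 229 and 221 in CFSE d1, 29.1, 49.2, 79.6 and 94.9 in DMSO d5 and 129, 87.3, 138 and 112 in CFSE d5. DMSO d5 had the widest relative spread of the 4 groups. The change was −1.11 ± 0.20 (log2, SE; adjusted p = 0.000403), and −1.26 ± 0.18 without the library labelled DMSO d1 replicate 4. PPAN was at 8.38, 8.41, 7.55 and 3.54 CPM in DMSO d1, 11.7, 12.3, 10.98 and 9.01 in CFSE d1, 3.23, 4.57, 4.87 and 4.80 in DMSO d5 and 5.04, 5.09, 5.23 and 5.84 in CFSE d5. Both dyes had lower PPAN on day 5 apart from the same library, and the change was −0.88 ± 0.16 (log2, SE; adjusted p = 0.000442), or −1.04 ± 0.11 without it. By role, the genes lower on day 5 were 3 of 7 for RNA polymerase I, 4 of 5 scaffold and helicase proteins, 3 of 4 for box C/D, 2 of 3 for box H/ACA, 5 of 10 for the small subunit and 6 of 11 for the large subunit. Without the library labelled DMSO d1 replicate 4 these were 4 of 7, 4 of 5, 3 of 4, 2 of 3, 8 of 10 and 8 of 11. Among the 102 other genes, 51 were lower and 3 higher (POLR1D, NOP53 and NSA2), with the smallest p-values for NOM1 at −1.09, TAF1C at −1.72 and DDX47 at −1.44, and MYC was at −0.51 ± 0.13 (log2, SE; adjusted p = 0.00472). Without that library 65 were lower and 2 higher, and MYC was at −0.61 ± 0.12.

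**Figure D5:**
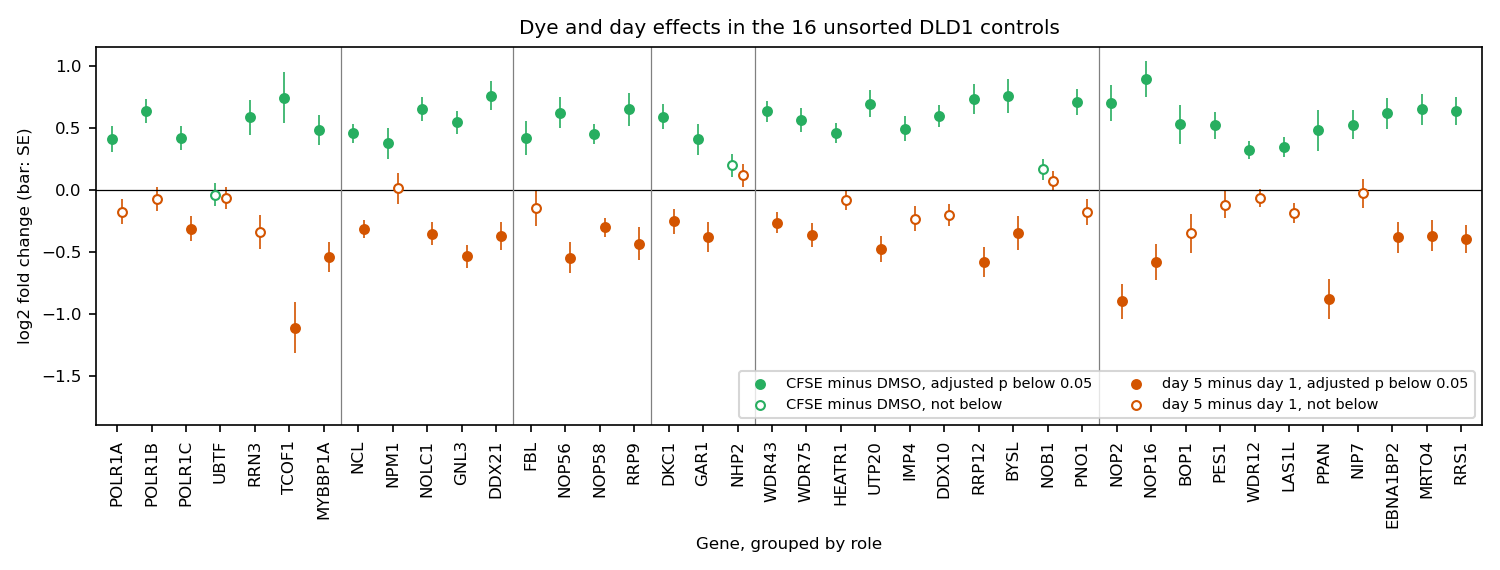
Log2 fold change with its SE for CFSE against DMSO (green) and for day 5 against day 1 (orange) in the 16 unsorted DLD1 controls, for the 40 genes grouped by role, with filled points where the adjusted p was below 0.05. The dye differences lie above 0 for 39 genes and the day differences below 0 for 37.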

How the data were processed

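Per the submitters' processing notes, the authors aligned single-end 50-base reads to hg19 with TopHat and counted them per Ensembl gene with HTSeq, and DESeq is also named, in each case without a version here. The values they deposited are raw counts per gene for 64 libraries, all mapped to samples by their labels, with 12237225 to 20913455 counts on genes. Reads without a feature, 5.19% to 14.8% of the gene, no-feature and ambiguous reads together, and other rows that name no gene were left out. Whether counting used strand is not given in the sources used here, so reads of overlapping antisense genes cannot be told apart.

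The tests took every gene that reached 10 counts in 4 or more of the libraries compared. They were two-sided quasi-likelihood tests of edgeR 4.0.16 (R 4.3.3) with TMM factors, and p-values were adjusted by Benjamini-Hochberg over the whole table, with a threshold of 0.05. Fold changes are those of the edgeR fits at their default setting, and CPM are TMM-scaled. A prior count of 2 was used for log2 CPM only. DESeq2 1.42.0, other filters, no TMM factors, a prior count of 0.5, a replicate block, other sample sets and leaving out each replicate number were the alternatives, and leaving out the library labelled DMSO d1 replicate 4 was added after seeing the data. The procedures were tested on simulated data. Deviations of same-numbered LRCs and non-LRCs correlated above 0.1 in every pair in HT55 (0.141 to 0.387), SW48 (0.123 to 0.449), DLD1 (0.151 to 0.319) and HCT15 (0.232 to 0.418), but not in SW948 (0.0121 to 0.107) or RKO (−0.0697 to 0.0109). In the controls they did so for the 2 days of CFSE (0.12 to 0.232), but not for the 2 days of DMSO (−0.23 to 0.153) or for CFSE and DMSO of day 1 (0.0521 to 0.179) or day 5 (0.0446 to 0.393).

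The members and lists were chosen with earlier results of these data known. Members described in detail were the 8 with the smallest and the 3 with the largest p-values across the lines, 3 with the smallest p of the line by population term, 3 with the widest range of line means, 4 with the smallest p for day and 2 for dye, and of 102 other pathway genes the 3 with the smallest p. Other members are named after their values were seen. Promoters are from RefSeq (GRCh38.p14), located on GRCh37 by exact match.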

Additional observations from a re-analysis of the deposited data

Results flagged for a closer look

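Single libraries stood far from the other 3 of their group, by Dixon's criterion, for 18 of 352 values of the member share or of a named member per group, a rate close to the 1 in 20 that chance gives. The library labelled DMSO d1 replicate 4 accounts for 5 of them, with a member share of 0.499%, DKC1 at 101.9 CPM, NOLC1 at 214.6 CPM, RRN3 at 26.5 CPM and TCOF1 at 83.7 CPM, all the lowest of their group. The share in HT55 LRC replicate 2 was 0.361%. In SW48, DKC1 was 150.3 CPM in non-LRC replicate 2, GNL3 was 177.3 CPM in non-LRC replicate 3, and LRC replicate 2 had NOB1 at 126.6 CPM and RRP12 at 82.7 CPM. In DLD1, NHP2 was 61.4 CPM in LRC replicate 3 and WDR12 was 48.3 CPM in non-LRC replicate 4. In HT55 non-LRCs, NHP2 was 36.6 CPM in replicate 1 and NOP16 was 30.1 CPM in replicate 4. MRTO4 was 54.9 CPM in SW948 LRC replicate 4 and 109.8 CPM in CFSE d1 replicate 2. IMP4 was 67.9 CPM in DMSO d5 replicate 2, and PPAN was 6.70 CPM in RKO LRC replicate 1.

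The LRC effect differed between lines by the line by population term for 9 members, with edgeR adjusted p-values of 0.0014 for EBNA1BP2, 0.00178 for WDR43, 0.00691 for NOP58, 0.0111 for GAR1, 0.0169 for NOP16, 0.0179 for FBL, 0.0283 for POLR1B, 0.0299 for MRTO4 and 0.0388 for RRN3. RRN3 was the member whose estimate was most positive in HCT15, at 0.42.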

How the results depend on the processing

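Counts in this section are given without the share of all genes in the same fit, so they describe how stable the calls were. Of the counts of members called, 140 values under alternatives were within 1.5 times the count as reported and 25 were not. The cause was not tested for any of these. Across the 6 lines, 1 member (RRN3 where DESeq2 or the block was used) instead of 0 was higher in LRCs with DESeq2, with at least 10 counts in every sample, and with the replicate block, while lower calls ranged from 19 to 23 when replicate numbers were left out. In single lines, the count in SW948 was 3 without a filter, 2 with the replicate block (where numbers do not pair the samples), 2 in a fit of all 48 samples, and 0 to 3 with a replicate left out. In SW48 it was 2 with DESeq2, 1 without TMM factors, 2 with the replicate block and 0 to 1 with a replicate left out. HT55 gave 0 to 3 with a replicate left out, and HCT15 gave 7 with the replicate block and 1 in the fit of all 48 samples. DLD1 gave 2 to 17 with a replicate left out and 13 in the fit of all 48 samples. The line by population term was significant for 19 members with the replicate block and for 1 to 11 with a replicate left out. In the controls, 13 to 24 members were lower on day 5 with a replicate left out, 29 without the library labelled DMSO d1 replicate 4, and 11 in DMSO alone, and 17 were higher with CFSE on day 5 alone. Of 180 values of named members under alternatives, 177 stayed the same. For fold changes this means the same direction and side of the threshold. The others were mean log2 CPM with a prior count of 0.5, where it means a shift smaller than the SD between samples. RRP12 across the lines changed sign around 0, at −0.0035 without a filter, −0.0066 without TMM factors and between −0.0127 and 0.0123 with a replicate left out. With 4 replicates per group, a change that missed the threshold in a single line is not shown to be absent, and for BOP1 and PPAN, with at most 208 and 191 counts per sample, counting error adds to the spread.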
